A study of Drosophila montana with 12 samples.

Results

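The 100 most abundant contigs are those of 31233 contigs in the *D. montana* transcriptome with the highest median CPM (the usual depth-scaled count, which divides a contig's count by the total of its library) over 12 libraries. Contig_633, contig_8009, contig_653, and contig_3252 were left out of the choice. Of these, contig_653 (median 1794 CPM, range 36.5 to 5538) alone would have ranked among the first 100, at rank 20 of all contigs. The members were thus chosen by measured abundance, and the median CPM that chose them ran from 4439 in contig_8934 to 962.1 in contig_250, with a median of 1307. The last members inside the limit were contig_207 (971.6 CPM), contig_193 (967.2 CPM), and contig_250, and the first contigs outside it were contig_1635 (954.7 CPM), contig_4993 (953.7 CPM), and contig_777 (949.8 CPM). Contig lengths were not used here, and a long contig collects more reads than a short one, so that the order is one of reads and not of transcript copies.

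In animal cells a small set of abundant transcripts, such as those for ribosomal proteins, muscle proteins, and enzymes of energy metabolism, takes up a large part of the messenger RNA. A library is a sample of limited size, so a rise in the share of some transcripts lowers the share left for the others. Adult *D. montana* females respond to short days of late summer with a reproductive diapause, in which the ovaries stay small and without yolk and resources go to survival over winter, whereas nondiapausing females carry large ovaries full of yolk-laden eggs.

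Each library held RNA of 10 pooled whole females, 21 d after eclosion, so that ovary, fat body, muscle, and all other tissues were measured together. There were 3 diapausing (D) libraries from a light:dark (LD) cycle of 16:8 h, 3 D libraries and 3 nondiapausing (ND) libraries from the critical day length (CDL), at which both states occur side by side, and 3 ND libraries from LD 22:2. The labels give the CDL as 17.5 h of light and 5.5 h of darkness, which add up to 23 h. The methods of the study give a longer light phase with the same 5.5 h of darkness. Isofemale line 175OJ8 was the source of every library at LD 16:8 and at LD 22:2, while both CDL groups had 1 library per line from 175OJ8, 265OJ8, and 3OL8, an isofemale line being the descendants of 1 wild female. Diapause state was thus compared within light cycle and line only at the CDL. LD 16:8 against LD 22:2 differed in state and light cycle together, which cannot be told apart, and both light cycle comparisons set 1 line against 3. Library totals were 4679623 to 5764157 counts in D and 2986505 to 6637623 in ND females, the lowest being the ND library of line 3OL8 at the CDL. No member had fewer than 688 counts in any library, and the median member had 3483 to 9212 counts in a library.

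The members carried 89 distinct blast hits among the 95 that had one. The hit was a RefSeq protein for 64 members, a FlyBase gene for 19, another database entry for 11, and a genomic scaffold for contig_8934. The 5 members without a hit were contig_2079, contig_4814, contig_7987, contig_27, and contig_10166, against 1.03% of all contigs. None of the 100 was among the 72 contigs for which the study's supplementary tables give a *D. melanogaster* ortholog, none shared a hit with 1 of these, and none of the hits matched a table of 15263 annotated genes. The members are therefore given by contig name and hit name, with no gene name or function. Of the contigs left out, these tables pair contig_633 with Yp3 and contig_8009 with Yp2, yolk proteins that flies lay down in growing eggs. Contig_633 ran from 91.0 to 442 CPM in D and from 966 to 1720 CPM in ND libraries, and contig_8009 from 20.9 to 111 CPM in D and from 294 to 521 CPM in ND libraries (n = 6 each). Every library thus stood on the side of its state label, although the study listed both contigs from tests on these same libraries.

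The members together took a larger share of the counts in D than in ND females in every library. Their share was 19.3%, 19.5%, and 18.3% at LD 16:8 and 18.8%, 18.6%, and 18.7% at the CDL in D females, against 12.9%, 13.5%, and 13.7% at the CDL and 13.4%, 14.0%, and 14.5% at LD 22:2 in ND females. The lowest D library thus lay above the highest ND library. The 95% Clopper-Pearson interval of the shallowest library ran from 13.61 to 13.69%, and such intervals cover counting error only. The mean was 18.86 ± 0.442% in D and 13.65 ± 0.554% in ND females (SD, n = 6 each), a difference of 5.21 percentage points and a ratio of 1.38. Within each isofemale line at the CDL the D library was higher, by 5.88 points in 175OJ8, 5.12 points in 265OJ8, and 5.02 points in 3OL8.

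**Figure D1:**
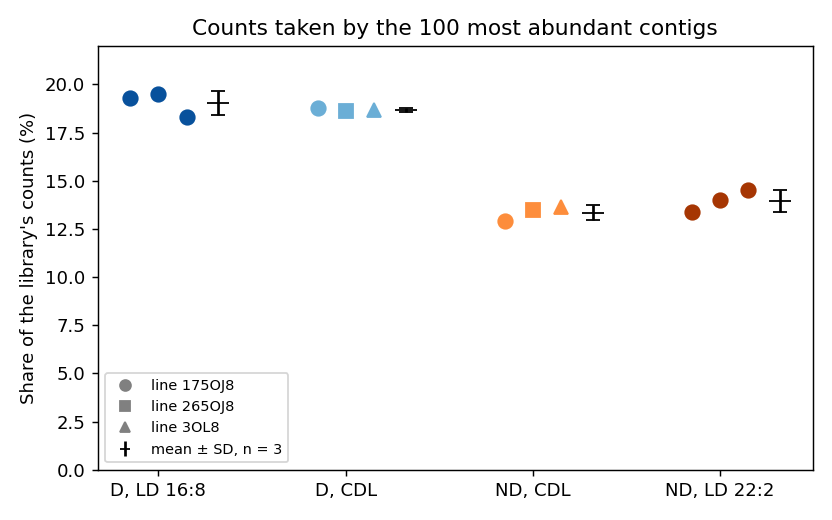
Percentage of each library's counts that fell on the 100 members, by group, with the mean ± SD of 3 libraries (black) and line shown by the shape of the point. The 6 diapausing (D) libraries sit between 18.3 and 19.5% and the 6 nondiapausing (ND) libraries between 12.9 and 14.5%.

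Light cycle moved this share less than state. It averaged 19.04 ± 0.621% at LD 16:8 and 18.68 ± 0.0926% at the CDL in D females, and 13.35 ± 0.391% at the CDL and 13.96 ± 0.576% at LD 22:2 in ND females (SD, n = 3 each). When the TMM-scaled library size (TMM is edgeR's trimmed mean scaling, which takes most contigs not to differ) replaced the plain total, the share was 21.27% in D and 12.13% in ND females, a ratio of 1.75. The 100 highest contigs of each library's own ranking took 20.54% in D and 15.22% in ND libraries. Between 69 and 79 of those own 100 were members. Ranked by the D libraries alone and by the ND libraries alone, the first 100 contigs included 80 and 79 members, and the pair of lists had 59 contigs in common, which is 59% of each. Only 26 members were among the first 100 of all 12 libraries.

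The comparison of D with ND females at the CDL asks which members depend on diapause state when light cycle and line are the same. In the likelihood ratio test, at a false discovery rate (FDR) under 0.05 over all contigs (differentially expressed, DE), 58 of the 100 members were higher and 3 lower in D females. Over all contigs 25.7% were higher and 23.7% lower. This fit had no term for line, so it did not use the pairing of the CDL libraries by line. With a line term 62 members were higher and 3 lower, beside 26.6% of all contigs higher and 24.4% lower. Fitted to the 6 CDL libraries alone, 37 members were higher and 3 lower, beside 25.2% of all contigs higher and 23% lower. For D females at LD 16:8 against ND females at LD 22:2, which share no library with the CDL comparison, 51 members were higher and 3 lower, with 24.8% of all contigs in either direction. The median log2 fold change of the members was 0.87 at the CDL and 0.67 between LD 16:8 and LD 22:2, beside 0.08 and 0.04 for all contigs. Contigs of rank 101 to 200 had medians of 0.79 and 0.71, so the shift was not particular to the members.

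DE in both comparisons and in the same direction, and so called state dependent here, were 53 members, 50 of them higher and 3 lower in D females, against 19.9 and 20.1% of all contigs. Another 8 were DE at the CDL only, contig_87 was DE between LD 16:8 and LD 22:2 only, 38 were DE in neither, and none was DE in opposite directions. For these last counts the share of all contigs was not computed. The quasi-likelihood test of edgeR kept all 53 and called 58 higher and 3 lower in both (19.4 and 19.9% of all contigs). For no member was a difference in fold change between the pair of state comparisons detected in the likelihood ratio or the quasi-likelihood test. At an unadjusted *P* under 0.05 there were 0 members in both tests, beside 3.39 and 3.17% of all contigs. In the likelihood ratio test 0.0032% of all contigs were DE for that difference. Its standard error had a median of 0.43 over the members, and for 41 the 95% interval lay within a log2 change of 1. A smaller difference than these intervals allow was not detectable. In 40 members every D library was above every ND library (16.9% of all contigs), and in 4, contig_193, contig_11110, contig_11946, and contig_877, every ND library was above every D library (20% of all contigs). Whole females were used, so fewer cells of a type and less RNA per cell cannot be told apart in any of these differences, and the part of ovary size in them was not tested.

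**Figure D2:**
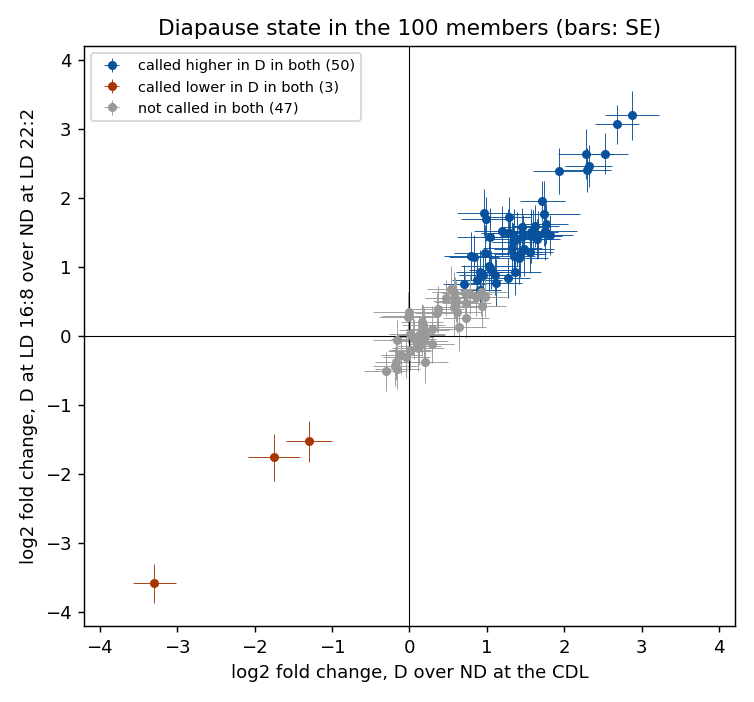
Log2 fold change of each member in D over ND females at the CDL (x axis) and in D females at LD 16:8 over ND females at LD 22:2 (y axis), with bars of 1 standard error. The 50 members DE and higher in D females in both comparisons (blue) lie at the upper right, and the 3 that were lower (brown) at the lower left, with contig_193 farthest out.

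The state-dependent members with the lowest FDR at the CDL differed several-fold. Contig_67 (hit XP_002055737) had 3313, 2959, and 2838 normalized CPM (CPM on the TMM-scaled library size) at LD 16:8 and 3006, 2703, and 2708 at the CDL in D females, against 442, 442, and 424 at the CDL and 263, 356, and 467 at LD 22:2 in ND females. The states did not come near each other. Its log2 fold change was 2.69 ± 0.28 at the CDL (SE, edgeR FDR 6.5e-17) and 3.07 ± 0.28 between LD 16:8 and LD 22:2 (edgeR FDR 2.5e-21).

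Contig_2215 (hit AAY63991) had 3431, 2864, and 2939 normalized CPM at LD 16:8 and 2818, 2793, and 2272 at the CDL in D females, against 567, 477, and 320 at the CDL and 440, 437, and 602 at LD 22:2 in ND females. Its D libraries all lay above its ND libraries, 5.78-fold on the fitted scale at the CDL and 6.24-fold in the other comparison. Contig_429 (hit XP_002059020) had the largest positive fold change of the members in both comparisons, with log2 values of 2.88 ± 0.35 and 3.19 ± 0.35 (SE). It ranged from 1646 to 3616 normalized CPM in D females, against 211 to 406 in ND females. Its coefficient of variation (CV) over the 12 libraries, 88.9%, was the highest of the 100.

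Contig_190 (hit XP_002049656) had 2161, 2380, and 3062 normalized CPM at LD 16:8 and 3237, 2410, and 2727 at the CDL in D females, against 530, 573, and 580 at the CDL and 302, 459, and 617 at LD 22:2 in ND females. Again there was no overlap, and the log2 fold changes were 2.32 ± 0.31 and 2.46 ± 0.31 (SE). Contig_4 (hit XP_002052427) was 4.91-fold higher in D females at the CDL and 5.29-fold higher at LD 16:8 than at LD 22:2, with 2403 to 4339 normalized CPM in D and 512 to 900 in ND libraries. These 5 members were DE in both comparisons under every alternative tried for them.

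Only 3 members were state dependent in the opposite direction. Contig_193 (hit XP_002052405) had 165, 143, and 183 normalized CPM at LD 16:8 and 207, 190, and 214 at the CDL in D females, against 2191, 1860, and 1949 at the CDL and 2110, 2165, and 1602 at LD 22:2 in ND females. All ND libraries were far above all D libraries. Its log2 fold changes of -3.29 ± 0.28 (SE, edgeR FDR 2.8e-24) and -3.58 ± 0.28 (SE, edgeR FDR 5.8e-28) were the largest in size of any member.

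Contig_11110 (hit ACD67940) had 760, 913, and 388 normalized CPM at LD 16:8 and 1003, 626, and 607 at the CDL in D females, against 3039, 2229, and 2265 at the CDL and 2207, 2294, and 2465 at LD 22:2 in ND females. The states did not overlap, and D females were at 0.297 times the ND level at the CDL. Contig_11946 (hit XP_002004124) averaged 494 ± 51.1 at LD 16:8 and 678 ± 113 at the CDL in D females, against 1667 ± 378 at the CDL and 1418 ± 223 normalized CPM at LD 22:2 in ND females (SD, n = 3 each). Its log2 fold changes were -1.30 ± 0.30 and -1.52 ± 0.30 (SE), and its states were also apart. These 3 were DE and lower in D females under every alternative tried.

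**Figure D3:**
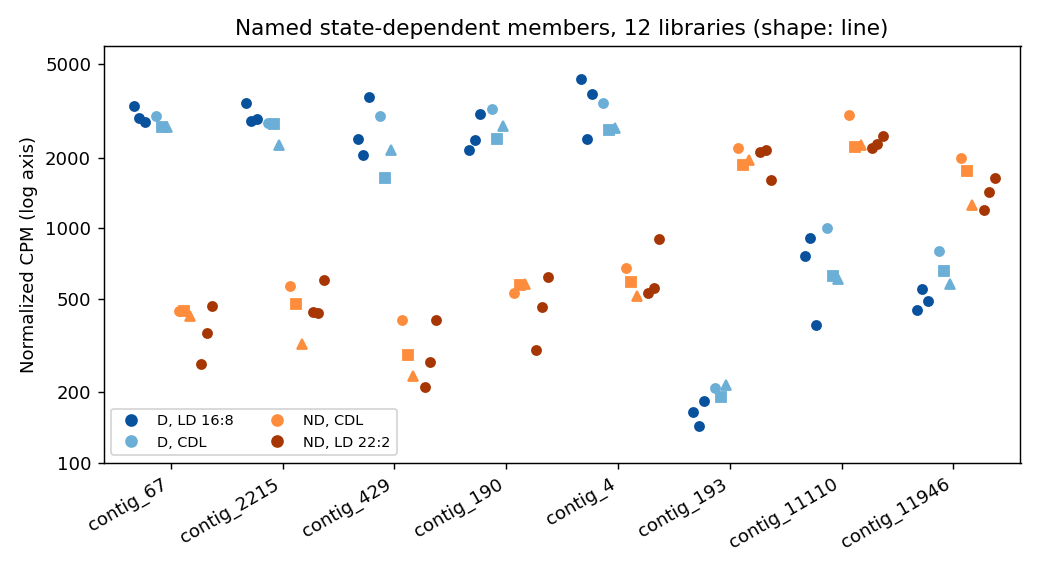
Normalized CPM (log axis) of the 8 named state-dependent members in each library, in D females at LD 16:8 and the CDL (blue) and in ND females at the CDL and LD 22:2 (orange and brown). In the first 5 contigs every D library is above every ND library, as their choice required. In contig_193, contig_11110, and contig_11946, the only members lower in D females in both comparisons, every ND library is above every D library.

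Among the 10 members with the highest median CPM, 6 were state dependent and all 6 were higher in D females. Contig_11683 (hit FBgn0205013) had 4686, 9127, and 5324 normalized CPM at LD 16:8 and 6994, 8449, and 7599 at the CDL in D females, against 2126, 2564, and 2116 at the CDL and 1963, 2340, and 1915 at LD 22:2 in ND females. Every D library was above every ND library, by log2 values of 1.76 ± 0.28 at the CDL and 1.62 ± 0.28 between LD 16:8 and LD 22:2 (SE). Contig_21333 (hit FBgn0211379) averaged 4179 ± 629 and 4612 ± 582 in D females at LD 16:8 and the CDL, against 1804 ± 278 and 1864 ± 103 normalized CPM in ND females at the CDL and LD 22:2 (SD, n = 3 each). It was 2.56-fold higher in D females at the CDL.

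Contig_18206 (hit AAA69708) was 2.58-fold higher in D females at the CDL and 1.90-fold higher in the other comparison, although 1 D library at LD 16:8, with 2052 normalized CPM, lay below the highest ND library, with 2365. Contig_2274 and contig_4607, both with the hit FBgn0254470, had log2 fold changes of 1.05 ± 0.28 and 0.96 ± 0.32 at the CDL (SE, edgeR FDR 0.00070 and 0.0083). Contig_31174 (hit XP_002057813) had 8473, 10531, and 3886 normalized CPM at LD 16:8 and 3218, 3213, and 5061 at the CDL in D females, against 2422, 2035, and 1451 at the CDL and 2304, 2316, and 2009 at LD 22:2 in ND females. Its states were apart, and 2 of the LD 16:8 libraries were above all others. Its log2 fold change was 0.96 ± 0.34 at the CDL (SE, edgeR FDR 0.014) and 1.79 ± 0.34 between LD 16:8 and LD 22:2 (SE, edgeR FDR 3.6e-06).

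Contig_445 (hit AAL39886) was DE at the CDL only in the likelihood ratio test (log2 fold change 0.97 ± 0.29, SE, edgeR FDR 0.0033), and by quasi-likelihood in both comparisons (edgeR FDR 0.037 for LD 16:8 against LD 22:2). The CDL calls of 3 of these contigs were lost when certain single libraries were left out, and also under other settings. Contig_31174 had an FDR of 0.10 without the D library and 0.069 without the ND library of line 3OL8. Contig_445 had 0.068 and contig_4607 had 0.13 without the D library of line 175OJ8, and contig_4607 had 0.056 without the ND library of line 265OJ8 (all edgeR). Without TMM factors the FDR at the CDL was 0.113 for contig_31174, 0.059 for contig_445, and 0.087 for contig_4607 (edgeR). Fitted to the 6 CDL libraries alone it was 0.084, 0.073, and 0.083 for the same contigs and 0.055 for contig_2274 (edgeR).

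The remaining 3 of the first 10 were not DE for state in the likelihood ratio test. Contig_11563 (hit XP_002050623) averaged 4268 ± 1345 and 3504 ± 530 in D females at LD 16:8 and the CDL, against 2405 ± 471 and 2649 ± 1011 normalized CPM in ND females at the CDL and LD 22:2 (SD, n = 3 each), and its states overlapped. Its edgeR FDR for LD 16:8 against LD 22:2 was 0.064 by likelihood ratio and 0.034 by quasi-likelihood. Contig_18469 (hit FBgn0258280) had a log2 fold change of 0.59 ± 0.30 at the CDL (SE) with an edgeR FDR of 0.091 by likelihood ratio, 0.038 by quasi-likelihood, and 0.040 by likelihood ratio without the ND library of line 3OL8. Between LD 16:8 and LD 22:2 its edgeR FDR was 0.114 by likelihood ratio and 0.049 by quasi-likelihood, so that it passed in both comparisons by quasi-likelihood. Contig_8934, the most abundant of all, averaged 4668 ± 3398 normalized CPM in D and 4671 ± 3357 in ND females at the CDL (SD, n = 3 each), and its spread followed the lines.

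By abundance, higher in D females in both comparisons were 50% of the members, 43% of the contigs of rank 101 to 200, 34.3% of rank 201 to 500, 35.6% of rank 501 to 1000, 27% of rank 1001 to 5000, and 18.1% of the rest. Lower in both were 3%, 6%, 13%, 12.8%, 23.9%, and 19.8% of the same classes. The contigs of rank 101 to 200 also took a larger mean share of the counts in D females, 8.67% against 6.83% in ND females. As a description, since the calls chose the contigs, the 50 higher members took 11.64% of the counts in D and 5.47% in ND females, the 3 lower members took 0.132% in D and 0.670% in ND females, and the other 47 took 7.09% in D and 7.51% in ND females.

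The scaling bears on these counts. TMM factors were 0.837 to 0.921 in D and 1.09 to 1.15 in ND libraries, and without them the median log2 fold change of all contigs moved by -0.35 at the CDL and -0.34 between LD 16:8 and LD 22:2. Members then still stood 0.79 and 0.63 above the median of all contigs on the log2 scale. Without TMM factors 38 members were higher and 4 lower at the CDL, and 38 were higher and 9 lower between LD 16:8 and LD 22:2. Of all contigs 15.6% were then higher and 34.2% lower at the CDL, and 15.7% higher and 35.1% lower between LD 16:8 and LD 22:2.

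Light cycle within a state asks which members change with day length when diapause state does not. In D females at LD 16:8 against the CDL, 0 members were DE in the likelihood ratio or the quasi-likelihood test, with 0.403 and 0.0064% of all contigs DE in these tests. At an unadjusted *P* under 0.05 there were 7 and 12, beside 7.32 and 7.76% of all contigs. DESeq2 called 1, contig_3430, which was higher at LD 16:8, beside 0.215% of all contigs in that direction. In ND females at the CDL against LD 22:2, 0 were DE in the same edgeR tests, with 0.224 and 0.0032% of all contigs. An unadjusted *P* under 0.05 was found in 7 and 8 (5.58 and 5.52% of all contigs). DESeq2 called 1, contig_4595, which was lower at the CDL, beside 0.0736% of all contigs in that direction. Both DESeq2 contigs are named because each was the lone call.

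The precision of these comparisons limits what they show. The standard error of the log2 fold change had a median of 0.30 over the members. In D females the fold changes ran from -0.66 to 1.08 with a median of -0.05. Less than 1.5-fold was the change in 88 members, close to the 87.3% of all contigs. For 78 members the 95% interval lay within a log2 change of 1 in either direction. In ND females the fold changes ran from -0.96 to 0.72 with a median of -0.08. There 89 members were under 1.5-fold, close to the 90% of all contigs, and for 76 the interval lay within those limits. Both medians changed sign when 1 library was left out, to 0.04 in D females without the D library of line 175OJ8 at the CDL and to 0.02 in ND females without replicate 3 of LD 22:2. A smaller response than these intervals allow was not detectable.

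**Figure D4:**
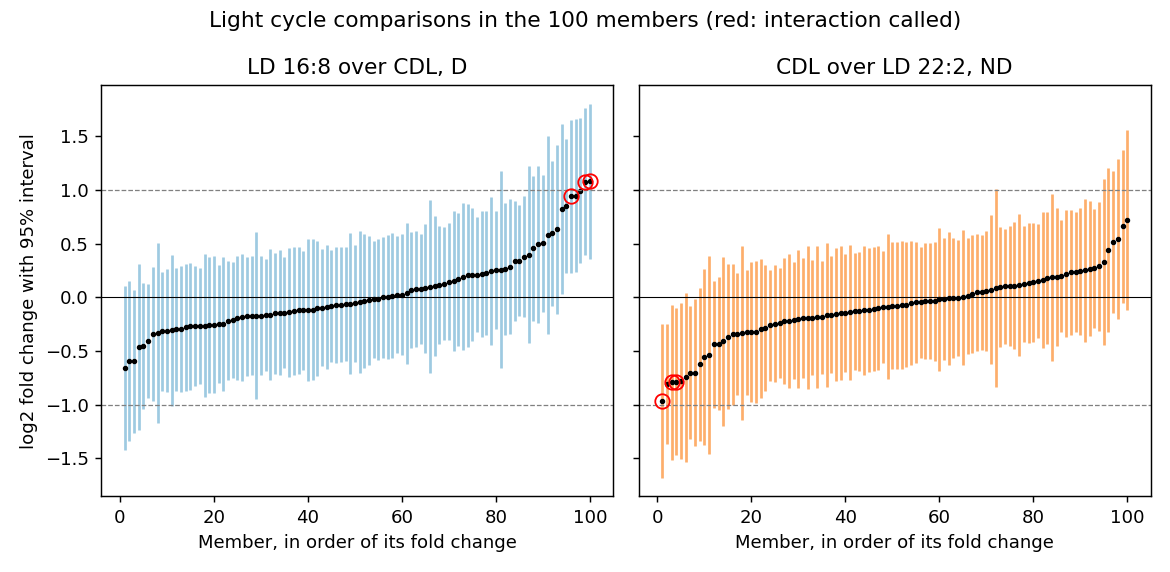
Log2 fold change with its 95% interval (1.96 standard errors) of the 100 members, each panel in its own order, in D females at LD 16:8 over the CDL (left) and in ND females at the CDL over LD 22:2 (right), with dashed lines at a log2 change of 1 in either direction. Most points lie near 0, and the 3 circled members, contig_11307, contig_3430, and contig_4128, are near the upper end at left and the lower end at right.

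Libraries of LD 16:8 and the CDL were apart in 4 members upward (contig_8947, contig_2215, contig_11307, and contig_3430) and 8 downward, beside 4.54 and 6.35% of all contigs. Those of the CDL and LD 22:2 in ND females were apart in 0 members upward and 15 downward, beside 5.9 and 6.71% of all contigs. Without replicate 3 of LD 16:8, contig_31174 became DE between LD 16:8 and the CDL (edgeR FDR 0.018).

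When line was added to the groups in the GLM, which sets the LD 16:8 and LD 22:2 libraries of line 175OJ8 against the CDL after allowing for line, 5 members were DE and higher at LD 16:8 in D females and 3 were DE and lower at the CDL in ND females, beside 0.567 and 0.295% of all contigs in the same directions under that fit. The 5 were contig_8934, contig_25154, contig_9910, contig_11307, and contig_3430, with log2 fold changes of 1.22 to 1.65, and the 3 were contig_8934, contig_25154, and contig_11307, with -1.37 to -1.11. In this fit the CDL level of line 175OJ8 rests on 1 library in each state. Contig_8934 shows the pattern in single libraries of 175OJ8, with 4722, 5401, and 6611 normalized CPM at LD 16:8 and 2320 at the CDL in D females, and 1812 at the CDL and 4880, 4675, and 3639 at LD 22:2 in ND females. The CDL libraries of this line were the lowest of all 12 for that contig.

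Isofemale line, tested within the CDL libraries, separated 5 members in the likelihood ratio test, beside 1.85% of all contigs, and 4 of these in the quasi-likelihood test (1.05% of all contigs). Contig_8934 (hit NW_002014431) had 8565 normalized CPM in 3OL8, 3120 in 265OJ8, and 2320 in 175OJ8 among D females, and 8367 in 3OL8, 3833 in 265OJ8, and 1812 in 175OJ8 among ND females. The order of the lines was the same in both states and the gap between 3OL8 and the other lines was far larger than that between states. Its log2 fold change of 3OL8 over 175OJ8 was 2.04 ± 0.26 and of 265OJ8 over 175OJ8 0.75 ± 0.26 (SE, edgeR FDR for line 1.4e-11).

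Contig_25154 (hit XP_002048063) had 6162 in 3OL8, 3458 in 265OJ8, and 1639 normalized CPM in 175OJ8 among D females, and 1277 in 3OL8, 1498 in 265OJ8, and 570 in 175OJ8 among ND females. Line 175OJ8 was lowest in both states, and the 3OL8 library was highest in D females only. Contig_3808 (hit XP_002047496) had 3417 in 3OL8, 1964 in 265OJ8, and 1030 in 175OJ8 among D females, and 1129 in 3OL8, 1451 in 265OJ8, and 525 in 175OJ8 among ND females, with the same lowest line. The edgeR FDR for line was 0.00035 for contig_25154 and 0.021 for contig_3808.

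Contig_11188 and contig_1894 completed the 5 and are named because the count is small. Contig_11188 (hit XP_002052765) was higher in 3OL8 than in 175OJ8 by a log2 value of 1.27 ± 0.34 (SE, edgeR FDR for line 0.047, and 0.064 in the quasi-likelihood test). Contig_1894 (hit XP_002046817) was the exception in direction, with 3OL8 below 175OJ8 (log2 fold change -0.87 ± 0.29, SE, edgeR FDR for line 0.040), at 795 and 1521 normalized CPM in D and 530 and 928 in ND females. Apart from contig_8934 all of the 5 were also state dependent.

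Line calls depended on single libraries, and each line had 1 library a state at the CDL. Contig_8934 stayed DE whichever CDL library was left out, with an edgeR FDR of at most 0.0050. Contig_25154 had an FDR of 0.43 without the D library of 175OJ8, 0.10 without the D library of 3OL8, and 0.071 without the ND library of 175OJ8 (edgeR). Contig_3808 had 0.67 and 0.37 without these D libraries, 0.44 without the ND library of 175OJ8, and 0.078 without the ND library of 265OJ8 (edgeR). Contig_1894 was lost with any CDL library left out, and contig_11188 without any D library of the CDL or the ND library of 265OJ8. Both were also lost without any library of LD 22:2, and contig_3808 without replicate 3 of LD 22:2, although those libraries are all of line 175OJ8. With estimateDisp, another dispersion estimate, contig_1894 and contig_11188 were lost as well.

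**Figure D5:**
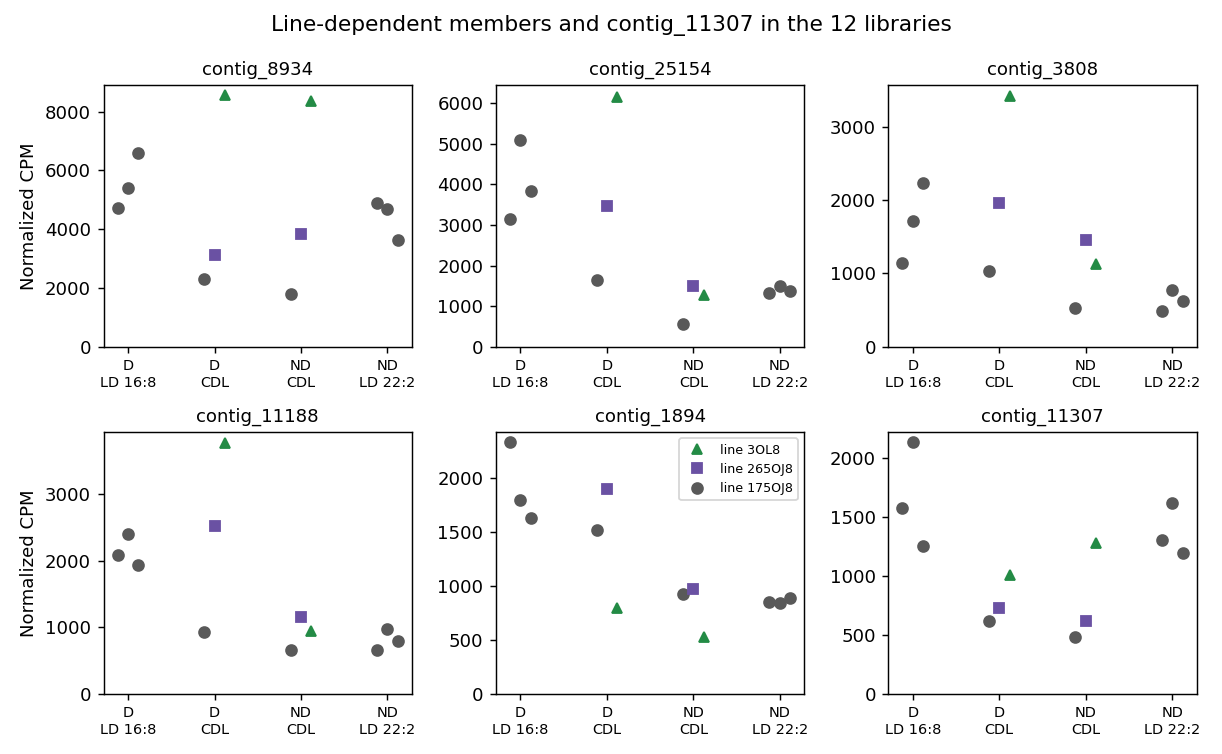
Normalized CPM of the 5 line-dependent members and of contig_11307 in each library, by group, with isofemale line shown by colour and shape. Line 3OL8 (green triangles) is highest at the CDL in both states in contig_8934 and lowest in contig_1894, and the LD 16:8 and LD 22:2 libraries are all of line 175OJ8 (grey circles).

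The interaction compares the response to the shorter day length between D and ND females. It was tested after the other results were seen. The shorter day length was LD 16:8 in D females but the CDL in ND females. The contrast therefore equals LD 16:8 and LD 22:2 together against both CDL groups. A contig that is low at the CDL in both states can thus pass it. The contrast also sets 1 line against 3. In the likelihood ratio test the interaction was significant in 3 members, all with a positive value (0.704% of all contigs). By quasi-likelihood it was significant in 0 (0.186%), where 20 members and 10.5% of all contigs had an unadjusted *P* under 0.05. Contig_11307 (hit XP_002054722) had 1578, 2136, and 1253 normalized CPM at LD 16:8 and 620, 723, and 1003 at the CDL in D females, against 482, 615, and 1280 at the CDL and 1306, 1616, and 1194 at LD 22:2 in ND females. It was lower at the CDL in both states, apart from the ND library of line 3OL8.

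Contig_3430 (hit XP_002017856) had 1624, 2131, and 1159 normalized CPM at LD 16:8 and 613, 766, and 949 at the CDL in D females, against 505, 668, and 1154 at the CDL and 1281, 1541, and 1188 at LD 22:2 in ND females. All CDL libraries were below the others. Of the 4950 pairs of members, contig_11307 and contig_3430 had the steadiest ratio, with an SD of 0.081 on the log2 scale over 12 libraries, beside a median of 0.68 over all pairs. Their hits differ, and whether reads of related sequence were split between them was not tested. Contig_4128 (hit XP_002054728) averaged 2115 ± 931 and 1101 ± 380 in D females at LD 16:8 and the CDL, against 538 ± 103 and 1050 ± 219 normalized CPM in ND females at the CDL and LD 22:2 (SD, n = 3 each). It was state dependent as well, at log2 fold changes of 1.03 ± 0.36 and 1.01 ± 0.36 (SE).

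Members DE in none of the state, light cycle, and line comparisons numbered 37. These include contig_11307 and contig_3430, for which the interaction was significant. Group means lay within 1.5-fold of each other in 28 members, none of them DE for state by likelihood ratio. The share of all contigs was not computed for either count, so neither shows whether the members were steadier than other contigs. By quasi-likelihood contig_877, with group means at most 1.42-fold apart, was DE between LD 16:8 and LD 22:2 (edgeR FDR 0.026). The 5 with the lowest CV of normalized CPM over the 12 libraries were contig_389 (hit XP_002052379, 8.46%), contig_168 (XP_002057754, 9.72%), contig_61 (XP_001963049, 10.7%), contig_360 (FBgn0208959, 10.8%), and contig_41 (XP_002048521, 11.0%). The median CV of the members was 42.2%. Contig_389 had 918, 905, and 946 at LD 16:8 and 1012, 974, and 948 at the CDL in D females, against 1133, 987, and 1039 at the CDL and 1104, 1144, and 1114 normalized CPM at LD 22:2 in ND females. Its lowest values were in D and its highest in ND libraries, with a narrow overlap.

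Contig_168 had 1831, 1914, and 1780 at LD 16:8 and 1818, 1596, and 1814 at the CDL in D females, against 1374, 1575, and 1613 at the CDL and 1609, 1904, and 1872 normalized CPM at LD 22:2 in ND females, with the ND libraries from the CDL at the low end and the other groups overlapping. The low CV chose these 5 and is a description, and normalized levels are relative to the other contigs.

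Several members had the same hit, and may be parts of 1 gene or near-identical copies between which uniquely mapped reads are divided. FBgn0136768 was the hit of contig_16360, contig_22598, contig_31226, and contig_18663. All 4 were higher in D females in both comparisons, with log2 fold changes at the CDL of 1.73 ± 0.47, 1.82 ± 0.29, 1.60 ± 0.32, and 1.58 ± 0.39 (SE). Over all contigs 28 had this hit, and those that are not members are not described here. Contig_31226 and contig_18663 kept a steady ratio over the 12 libraries (SD 0.24 on the log2 scale), whereas that of contig_16360 and contig_18663 did not (SD 1.16). Contig_178 and contig_250, with the hit ACY70531 (6 of all contigs), were both state dependent, at 1.65 ± 0.29 and 1.56 ± 0.30 (SE) at the CDL. Contig_18469 and contig_20734 shared the hit FBgn0258280, and their ratio varied with an SD of 0.87 over the libraries.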

How the data were processed

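Values were counts that the authors deposited for each of 12 libraries, 3 in each of 4 groups. They sequenced poly(A) RNA on the SOLiD platform, mapped reads to their own transcriptome assembly, and counted uniquely mapped reads per contig with HTSeq. The counts are not normalized and no reference genome or contig sequence was used here. A row with no contig name was dropped from each of the 12 tables.

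Analyses used R 4.3.3, edgeR 4.0.16, limma 3.58.1, and DESeq2 1.42.0. All 31233 contigs and 12 libraries were fitted together without a filter, as 4 groups, with TMM normalization, Cox-Reid common, trended, and tagwise dispersions, likelihood ratio tests, and Benjamini-Hochberg adjustment over all contigs (FDR 0.05), after the methods of the study. Line was tested in a fit of group and line. The common biological CV was 0.237. *P* values measure the spread between pools of females. Pools of a group were of different lines at the CDL and of the same line at the other light cycles. In the fit of groups without line, the shared dispersion thus mixes spread within and between lines. The procedure was tested on simulated data.

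Members and lists were chosen with earlier results of these data known. Members named are the 10 highest, up to 5 state-dependent members per direction without overlap and of lowest FDR, up to 3 per light cycle and line comparison, the 5 of lowest CV, those at the limit of the choice, members DE for the interaction, and small counts, the last chosen after their values were seen. Group labels give CDL libraries a line. Deviations from the group means correlated between D and ND libraries of the same line at 0.222, 0.153, and 0.341 over 30448 contigs, so line was taken to pair them. Between the equally numbered libraries from LD 16:8 and from LD 22:2 they were -0.0215, -0.122, and 0.0673, which was not taken as pairing. Alternatives were other tests, scalings, dispersions, filters, member lists, a line term, a replicate block, fewer libraries, and each library left out.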

Additional observations from a re-analysis of the deposited data

Results flagged for a closer look

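In 3 members the interaction term of the likelihood ratio test was significant. The term equals LD 16:8 and LD 22:2 together against both CDL groups. It does not by itself show that D and ND females responded differently. Group means of contig_11307 at the CDL were 782 in D and 792 normalized CPM in ND females, against 1656 at LD 16:8 and 1372 at LD 22:2. Those of contig_3430 were 776 in both states at the CDL, against 1638 at LD 16:8 and 1336 at LD 22:2. The difference in log2 fold change (LD 16:8 over CDL in D females minus CDL over LD 22:2 in ND females) was 1.87 for contig_11307 (edgeR FDR 0.038), 1.86 for contig_3430 (edgeR FDR 0.026), and 1.91 for contig_4128 (edgeR FDR 0.030). In the quasi-likelihood test the FDR was 0.105, 0.072, and 0.089, so none passed. The 3 LD 16:8 libraries of contig_11307 and contig_3430 were above the 3 D libraries from the CDL. Neither light cycle response was DE on its own in the 3 by likelihood ratio or quasi-likelihood in the reported fit. Other settings did call it in D females: DESeq2 for contig_3430 (FDR 0.027), common dispersion for contig_11307 and contig_3430 (edgeR FDR 0.016 in both), and the line term for both (edgeR FDR 0.0022 and 0.0033). The line term also called the response of contig_11307 in ND females (edgeR FDR 0.035). With the line term the difference was 2.91, 2.81, and 2.45 on the log2 scale.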

How the results depend on the processing

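The difference of the members' share stayed between 3.63 and 9.14 percentage points over 20 alternatives, and paired by line (replicate block) it was 5.34. In both state comparisons 31 members were higher and 3 lower in the reported fit and in all of 20 edgeR alternatives. DESeq2, the replicate block, and the fits to only the 6 libraries compared were not among these 20. The share of all contigs that pass in all of them was not computed. State at the CDL gave 40 members with the 6 libraries compared alone, 37 higher and 3 lower. The replicate block gave 65 members at the CDL and 52 between LD 16:8 and LD 22:2. In the latter the block joined equally numbered libraries, which were not taken as pairs. For contig_18469 the block turned the CDL call (edgeR FDR 0.040). The CDL fold change of contig_8934 reversed, always without a call. It was 0.031 with the block or a line term and 0.0019 under TMM without the members, and ran from -0.78 to 0.73 with single libraries left out.

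The median log2 fold change without TMM factors was 0.52 at the CDL and 0.34 between LD 16:8 and LD 22:2. With each library left out it ran from 0.73 to 0.87 and from 0.62 to 0.82 there, from -0.073 to 0.038 for LD 16:8 against the CDL, and from -0.13 to 0.023 for the CDL against LD 22:2. Between LD 16:8 and the CDL in D females, DESeq2 called 1 member, common dispersion 3, the line term 5, and leaving out libraries 0 to 1. Between the CDL and LD 22:2 in ND females, DESeq2 called 1 and the line term 3. Line gave 3 with estimateDisp and 1 to 8 with a library left out, from 1 without the D library of 175OJ8 or 3OL8 to 8 without replicate 3 of LD 16:8. The interaction, an addition made after seeing the data, gave 0 in the quasi-likelihood test and among the 50 highest contigs, 5 with DESeq2 and with common dispersion, 6 with a line term, and 0 to 4 with a library left out, being 0 without any of 8 of the 12. The share of all contigs was not computed under common dispersion or estimateDisp, with the replicate block, or with a library left out. Nor was it computed for the interaction with DESeq2 or a line term.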
